A study of Mus musculus with 24 samples.

Results

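The 39 Hox cluster genes were followed in mouse embryonic stem cells and in the embryoid bodies (EBs) grown from them. They are all rows of a table of 23284 gene symbols whose symbol is Hox with a cluster letter from a to d and a paralog number: 11 Hoxa genes, 10 Hoxb genes, 9 Hoxc genes and 9 Hoxd genes. Poly(A)-selected RNA was sequenced from C57BL/6 cells that the labels describe as cultured with serum and LIF on a layer of embryonic fibroblasts. The 4 genotypes all derive from a conditional Eed allele. KO+N-KR is the Eed knockout carrying the EED form labelled N-KR, which the labels do not spell out. KO+WT is the Eed knockout carrying re-expressed wild-type EED, and KO is the knockout itself. All 3 were made with 4-hydroxytamoxifen, added at 800 nM per the labels' protocols, and f/f is the undeleted line without tamoxifen, whose genotype the labels give as wild type. Genotype, tamoxifen and line history therefore cannot be told apart where f/f is compared. Among the 3 treated lines, genotype and line history cannot be told apart. The states are the one labelled 3i, which the labels do not explain, and EBs after 1 and 2 days, so that there are 12 groups of 2 libraries. The question was how RNA of the Hox clusters differed with loss and re-expression of EED in each state.

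Hox genes encode homeodomain transcription factors that give cells along the head-to-tail axis their regional identity. In the mouse they lie in 4 clusters, and in each cluster the low paralog numbers are expressed first and furthest forward in the embryo and the high numbers later and further back. In embryonic stem cells the clusters are a classical target of Polycomb repressive complex 2 (PRC2), which methylates histone H3 at lysine 27 and needs its subunit EED to do so. PRC2 is known to occupy CpG-rich promoters, and the Hox clusters are rich in them.

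Promoter windows, from 250 bases before to 50 bases after each start, were taken from RefSeq on GRCm38.p6, since PRC2 acts on CpG-rich starts. There were 24 windows for 22 of the 39 genes. The 4 below belong to the member of highest mean level in its cluster among those with an entry. They are printed 5′ to 3′ on the gene's strand, with each CG dinucleotide in capitals. Hoxa5 lies on chromosome 6 (chr6:52204538-52204837, minus strand) and its window holds 29 CG. Hoxb4 lies on chromosome 11 (chr11:96318017-96318316, plus strand), with 14 CG. Hoxc4 lies on chromosome 15 (chr15:103034145-103034444, plus strand), with 9 CG. Hoxd13 lies on chromosome 2 (chr2:74667975-74668274, plus strand), with 37 CG.
Hoxa5: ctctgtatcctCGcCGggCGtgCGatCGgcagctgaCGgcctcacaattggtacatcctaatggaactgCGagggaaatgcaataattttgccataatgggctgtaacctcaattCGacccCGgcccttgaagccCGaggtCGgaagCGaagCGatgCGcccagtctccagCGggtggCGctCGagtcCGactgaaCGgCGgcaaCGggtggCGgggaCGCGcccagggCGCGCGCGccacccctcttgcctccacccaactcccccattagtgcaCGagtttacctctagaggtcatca
Hoxb4: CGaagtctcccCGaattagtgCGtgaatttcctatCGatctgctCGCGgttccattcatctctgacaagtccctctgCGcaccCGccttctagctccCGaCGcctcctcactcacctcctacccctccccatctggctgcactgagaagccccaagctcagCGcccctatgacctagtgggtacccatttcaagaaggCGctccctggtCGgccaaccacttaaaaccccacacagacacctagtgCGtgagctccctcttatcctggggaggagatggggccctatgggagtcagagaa
Hoxc4: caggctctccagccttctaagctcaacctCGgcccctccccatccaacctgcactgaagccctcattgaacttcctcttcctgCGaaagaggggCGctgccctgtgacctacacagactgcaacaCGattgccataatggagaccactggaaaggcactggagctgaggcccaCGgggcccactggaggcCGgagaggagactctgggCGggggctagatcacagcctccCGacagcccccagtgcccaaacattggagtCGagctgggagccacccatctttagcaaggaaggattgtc
Hoxd13: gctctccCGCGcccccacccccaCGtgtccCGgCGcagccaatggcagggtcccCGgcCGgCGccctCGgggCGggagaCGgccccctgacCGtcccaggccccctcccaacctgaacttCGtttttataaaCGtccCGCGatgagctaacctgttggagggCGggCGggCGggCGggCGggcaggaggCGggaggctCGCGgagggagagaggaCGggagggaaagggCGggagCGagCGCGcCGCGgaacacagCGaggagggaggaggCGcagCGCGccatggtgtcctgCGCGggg
The median over the 24 Hox windows was 14.5 CG, against 7 over 32851 windows of 27025 genes. Of the Hox windows, 11 (45.8%) were above both a GC content of 50% and an observed to expected CG ratio of 0.6, against 33.3% of all windows. The 4 windows shown are thus unlike each other: those of Hoxa5 and Hoxd13 are dense in CG and that of Hoxc4 is not. A few short motifs were searched on both strands. AGGTCA, the half-site of retinoid receptors, was in 7 Hox windows (29.2%), Hoxa5, Hoxb4 and Hoxc4 among them, against 16.3% of all windows. The Pbx-Hox motif TGATNNAT was in 4 (16.7%) against 8.85%, the caudal-type motif TTTATNG in 2 (8.33%) against 10.9%, and TATAAA in 4 (16.7%), Hoxd13 among them, against 13.6%. With A at its N, TTTATNG contains TATAAA read on the other strand, so these counts are not separate. The windows with TTTATNG, of Hoxb8 and Hoxd4, also held TATAAA.

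Library totals ran from 7553683 to 14426034 counts. Within each group the 2 libraries differed by 1.10 to 1.18 times the variance of binomial sampling, against 4.98 to 24.3 times between genotypes of a state. No label ties the pair to separate cultures, so each pair was added up into 1 sample, for 12 samples of 18017598 to 25160294 counts. Levels are CPM, counts relative to the library total, scaled by TMM, a normalisation of library composition. Within a state there is 1 sample per genotype, so differences there have no replicate check and no p-value. They are given as log2 ratios with an exact 95% interval that covers counting error only, since reads copied by PCR are not independent molecules. Tests across states used edgeR's quasi-likelihood test of an additive model of genotype and state over the 12 samples, with Benjamini-Hochberg adjustment over all 14970 genes tested and a threshold of 0.05. A p-value from it says how steady a difference was from state to state, in 1 line per genotype. Eed itself had CPM levels of 168 in KO+N-KR, 387 in KO+WT, 138 in KO and 175 in f/f at 3i, and across states it was lower in KO than in f/f, with a log2 fold change of -0.35 ± 0.10 (SE) (edgeR adjusted p = 0.0463). Counts per gene do not show the deleted part, so this checks the deletion only weakly. Defining stem cell markers were high: Pou5f1 had CPM levels of 960.4 in KO+N-KR, 949.6 in KO+WT, 764 in KO and 944 in f/f at 3i. At EB day 1 all 5 formative epiblast markers tested rose over 3i, while 7 of 8 stem cell markers fell and 1, Pou5f1, rose. Of all genes tested, 31.9% rose and 34.2% fell. The labels name a fibroblast feeder layer, and Col1a1, a fibroblast collagen, had CPM levels of 207 in KO+N-KR, 352 in KO+WT, 222 in KO and 243 in f/f at 3i and 12.2 to 34.1 CPM in EBs.

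Hox RNA was scarce in every sample. Over the 12 samples the 39 genes had 4213 counts in all: 1438 from Hoxc, 1094 from Hoxb, 984 from Hoxa and 697 from Hoxd. The leading 5 members held 328 to 737 counts each, 4 others held 109 to 223, and the other 30 held 3 to 92. For comparison between genes, CPM were divided by the exon length of the GENCODE annotation on GRCm38. On this scale of CPM per kilobase, averaged over samples, the higher values included Hoxc13 with 1.15, Hoxc4 with 0.543, Hoxb9 with 0.528, Hoxd13 with 0.509 and Hoxb13 with 0.384. At the other end stood Hoxd3 with 0.00822, Hoxa6 with 0.0127 and Hoxc11 with 0.0150. Levels did not follow the order along the clusters. The leading member was the last gene of the cluster in Hoxc and Hoxd, and Hoxb9 in Hoxb. By highest CPM over the 12 samples, 15 members peaked in KO at day 2, 11 in KO+WT at 3i and 4 in KO at 3i, with the other 9 spread over 5 samples. The low-count filter passed 13 members, among them Hoxb1, Hoxb3, Hoxb4, Hoxb9, Hoxb13, Hoxc4, Hoxc8, Hoxc12, Hoxc13, Hoxd1, Hoxd8 and Hoxd13. The other 26 entered only the sums, the counts and a fit without the filter.

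**Figure D1:**
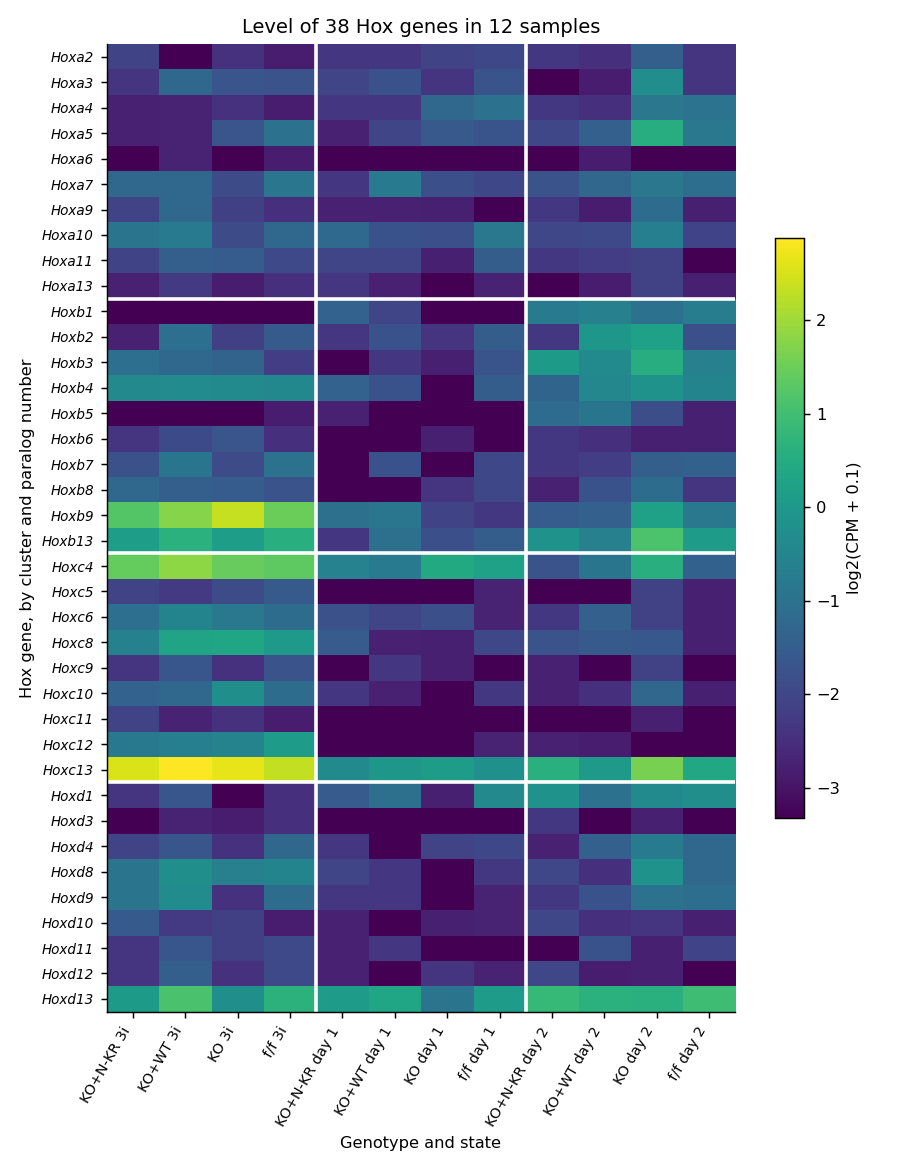
Level of 38 of the 39 Hox genes (rows, by cluster and paralog number) in the 12 samples (columns, by state and genotype), as log2(CPM + 0.1). Hoxc13, Hoxc4 and Hoxb9 are brightest at 3i, and the KO column at day 2 is brighter than the other EB columns in many rows.

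Summed over all 39 genes, Hox RNA was high at 3i, low at EB day 1 and, in KO, high again at day 2. At 3i the sum in CPM was 20.2 in KO+N-KR, 29.3 in KO+WT, 24.8 in KO and 23.6 in f/f. At day 1 it was 7.28 in KO+N-KR, 8.26 in KO+WT, 7.09 in KO and 9.79 in f/f. At day 2 it was 10.4 in KO+N-KR, 12.1 in KO+WT, 25.5 in KO and 14.3 in f/f. The day 1 level was below the 3i level in all 4 genotypes, with a log2 ratio of -1.48 (-1.75 to -1.20) in KO+N-KR, -1.83 (-2.08 to -1.58) in KO+WT, -1.81 (-2.08 to -1.55) in KO and -1.27 (-1.51 to -1.03) in f/f. At day 2 KO was back at its 3i sum, with a log2 ratio of day 2 over 3i of 0.04 (-0.13 to 0.21). The other genotypes remained below theirs, at -0.96 (-1.20 to -0.72) in KO+N-KR, -1.27 (-1.48 to -1.07) in KO+WT and -0.73 (-0.93 to -0.52) in f/f. From day 1 to day 2 the sum was 3.59-fold higher in KO, against 1.43-fold in KO+N-KR, 1.47-fold in KO+WT and 1.46-fold in f/f. Whether these folds differ was not tested, since each genotype has 1 sample per state.

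The clusters had different courses. Hoxc made up 50.9% of Hox counts at 3i in KO+N-KR, 46.7% in KO+WT, 48.8% in KO and 44.1% in f/f. By day 2 its share was 20.0% in KO+N-KR, 16.2% in KO+WT, 21.0% in KO and 11.7% in f/f. The Hoxb sum at day 1 was far below 3i in every genotype, with log2 ratios of -2.03 (-2.72 to -1.39) in KO+N-KR, -2.08 (-2.67 to -1.53) in KO+WT, -3.66 (-4.60 to -2.85) in KO and -2.09 (-2.74 to -1.49) in f/f. The Hoxa sum differed little between 3i and day 1: the intervals of its log2 ratio included 0 in all 4 genotypes, from -0.40 (-0.91 to 0.10) in KO+WT to 0.03 (-0.54 to 0.60) in KO+N-KR. By position, the anterior genes (paralog numbers 1 to 3) took 9.35% to 12.9% of Hox counts at 3i and 31.9% to 39.2% at day 2. The posterior genes (9 to 13) took 56.8% to 62.2% at 3i and 34.4% to 48.6% at day 2. Their day 2 over 3i ratios lay on opposite sides of 0 in KO, at 1.72 (1.30 to 2.16) for anterior and -0.66 (-0.91 to -0.41) for posterior genes. The point values of these ratios had the same signs in the other genotypes.

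**Figure D2:**
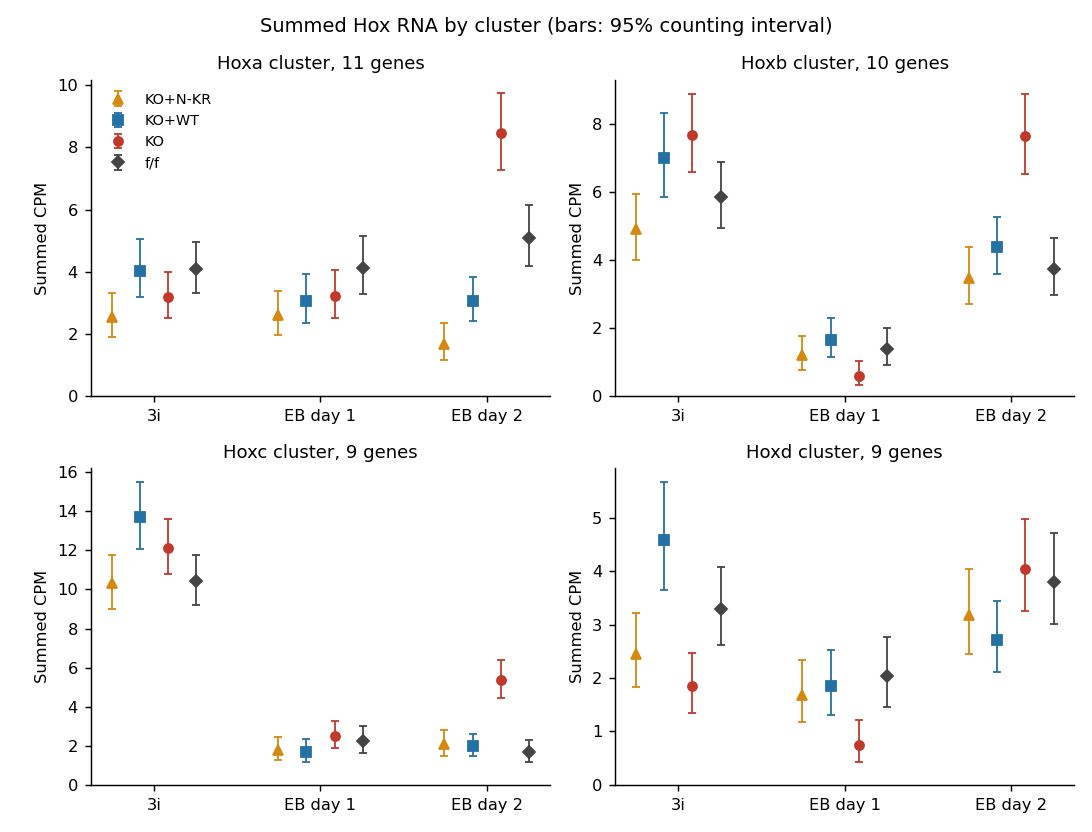
Summed CPM (vertical axis) of each Hox cluster at 3i, EB day 1 and EB day 2 (horizontal axis) in the 4 genotypes. Points are single samples and bars the exact 95% Poisson interval of the count. At day 2 the KO point lies above the f/f interval for Hoxa, Hoxb and Hoxc and inside it for Hoxd.

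In the test across genotypes, EB day 1 against 3i, 10 of the 13 Hox genes tested were called, 2 higher and 8 lower, where 66.1% of all genes were called, 31.9% higher and 34.2% lower. The genes that fell were Hoxb4, Hoxb9, Hoxb13, Hoxc4, Hoxc8, Hoxc12, Hoxc13 and Hoxd8. Those that rose were Hoxb1 and Hoxd1. Hoxc8 and Hoxc12 reached 10 counts in 3i samples alone, and Hoxb1 and Hoxb3 in day 2 samples alone, so these 4 passed the filter through the state in which they were high. Hoxd1 reached 10 counts in 0 samples at 3i, 1 at day 1 and 4 at day 2, so it passed through the EB days. Hoxb4, Hoxb9, Hoxb13 and Hoxd8 reached 10 counts in 0 samples at day 1, so they passed through 3i and day 2. For all these genes the direction of calls between states of entry and the other states was set by this entry. The counts and medians over the 13 tested genes are no evidence of a pattern. The median log2 fold change of the 13 was -1.84, against -0.02 over all genes. At day 2 against 3i, 3 rose (Hoxb1, Hoxb3 and Hoxd1) and 5 fell (Hoxb9, Hoxc4, Hoxc8, Hoxc12 and Hoxc13), where 63.9% of all genes were called, 33.2% higher and 30.6% lower. The median of the 13 was -0.20, against 0.02 over all genes. At day 2 against day 1, 6 rose (Hoxb1, Hoxb3, Hoxb4, Hoxb13, Hoxc13 and Hoxd13) and 0 fell, where 55.7% of all genes were called, 29.4% higher and 26.3% lower. Without the first library of each group, which leaves 5 Hox genes tested, the calls were 3, 3 and 0 for these 3 comparisons. Of 13733 genes tested in that fit, 4193, 4117 and 3369 rose and 4257, 3926 and 3437 fell, in the same order. Without the second library, with 7 Hox genes tested, the calls were 5, 4 and 3. There, of 14265 genes tested, 4470, 4507 and 3769 rose and 4545, 4143 and 3647 fell. Leaving out KO ended the day 2 over day 1 calls of Hoxb4, Hoxc13 and Hoxd13 and brought a call of Hoxc4 as lower, and it ended the day 1 call of Hoxd8. At day 2 against day 1, the call of Hoxb4 was also lost without KO+WT, that of Hoxc13 without KO+N-KR and that of Hoxd13 without f/f. Hoxb1 entered the test only with KO+N-KR, KO+WT and f/f all present, and Hoxd1 only with f/f. Markers of the fibroblast feeder layer moved with the states. Of 18 genes in that list 16 were tested, and 13 fell and 0 rose at day 1 against 3i, while 11 fell and 3 rose at day 2. Their summed level was 2719 to 3903 CPM at 3i, 1039 to 1209 at day 1 and 1037 to 1093 at day 2. Most of that sum was Fn1, a matrix protein gene of many cell types, and Lum, a defining marker, was at 0 in 3 EB samples and at most 0.142 CPM elsewhere. The part of feeder RNA in the Hox levels was not tested, and fewer cells of a type and less RNA per cell cannot be told apart in these bulk samples.

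The group 1 paralogs, the most anterior genes, took the largest part of the anterior sum. Hoxd1 had CPM levels of 0.0945 in KO+N-KR, 0.216 in KO+WT, 0 in KO and 0.0801 in f/f at 3i and 0.241 in KO+N-KR, 0.389 in KO+WT, 0.0466 in KO and 0.663 in f/f at day 1. Its day 2 level was 0.793 in KO+N-KR, 0.394 in KO+WT, 0.674 in KO and 0.740 in f/f. Hoxd1 rose over 3i in the fit across genotypes, by 1.79 ± 0.72 (SE) on the log2 scale at day 1 (edgeR adjusted p = 0.0426; 0.0628 with DESeq2) and 2.78 ± 0.63 (SE) at day 2 (edgeR adjusted p = 0.00161). The day 1 call of Hoxd1 was also lost with library totals alone and without KO+N-KR. Hoxd1 passed the filter through EB samples alone, so the direction of these rises over 3i was set by its entry. Hoxb1, which marks a single hindbrain segment in the embryo, had no read at 3i in any genotype. It had 9 counts at day 1, all in the rescue lines, and 44 at day 2, which is at least 14.5-fold above a floor of 3 counts over the 4 samples of 3i.

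**Figure D3:**
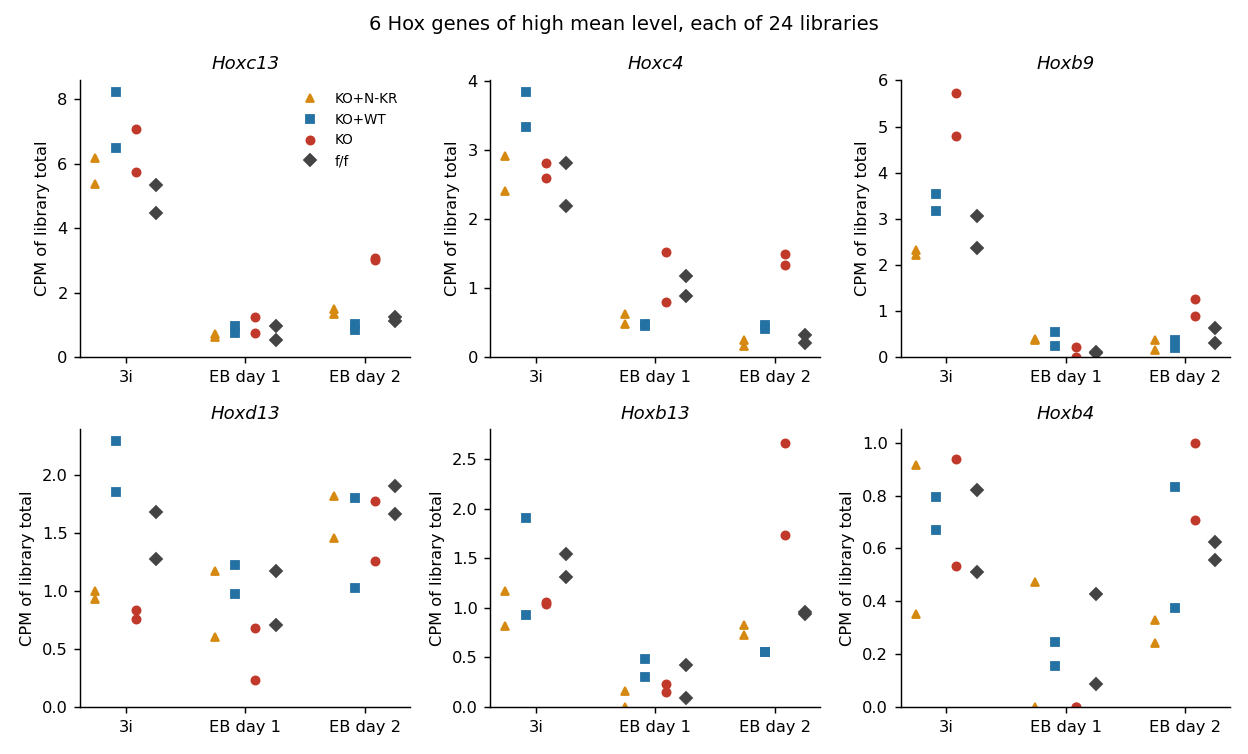
CPM of the library total (vertical axis) of 6 Hox genes of high mean level in each of the 24 libraries (points, 2 per group), by state and genotype. Hoxc13, Hoxc4 and Hoxb9 stand highest at 3i, and both KO libraries lie above both f/f libraries at day 2 for Hoxc13, Hoxc4, Hoxb9, Hoxb13 and Hoxb4 but not for Hoxd13.

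The group 3 gene Hoxb3, a hindbrain gene, had CPM levels of 0.378 in KO+N-KR, 0.323 in KO+WT, 0.294 in KO and 0.120 in f/f at 3i. At day 1 the levels were 0 in KO+N-KR, 0.0972 in KO+WT, 0.0466 in KO and 0.204 in f/f, and at day 2 they were 0.942 in KO+N-KR, 0.671 in KO+WT, 1.35 in KO and 0.555 in f/f. Every genotype was highest at day 2, and the increase over day 1 was 3.26 ± 0.55 (SE) on the log2 scale (edgeR adjusted p = 2.40e-04). Hoxb3 passed the filter through day 2 samples alone, so the direction of this increase was set by its entry. Of the central genes, Hoxb4, which acts at the boundary of hindbrain and spinal cord, had CPM levels of 0.662 in KO+N-KR, 0.700 in KO+WT, 0.671 in KO and 0.641 in f/f at 3i. At day 1 it had counts of 6 in KO+N-KR, 4 in KO+WT, 0 in KO and 5 in f/f, and at day 2 CPM levels of 0.297 in KO+N-KR, 0.631 in KO+WT, 0.809 in KO and 0.601 in f/f. KO had no Hoxb4 count at day 1. Hoxc4 had CPM levels of 2.55 in KO+N-KR, 3.45 in KO+WT, 2.60 in KO and 2.44 in f/f at 3i. At day 1 the levels were 0.578 in KO+N-KR, 0.486 in KO+WT, 1.26 in KO and 1.07 in f/f, and at day 2 they were 0.198 in KO+N-KR, 0.434 in KO+WT, 1.39 in KO and 0.277 in f/f. KO held the highest Hoxc4 level of the 4 genotypes on both EB days. Across genotypes Hoxc4 was lower than at 3i on both days, with log2 fold changes of -1.74 ± 0.36 (SE) and -2.34 ± 0.38 (SE) (edgeR adjusted p = 7.82e-04 and 1.21e-04). Hoxc8, which patterns the thoracic region, had CPM levels of 0.567 in KO+N-KR, 1.13 in KO+WT, 1.17 in KO and 0.921 in f/f at 3i and 1 to 6 counts in each EB sample.

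The posterior genes carried most Hox counts at 3i. Hoxc13, known for its role in hair and nail, had CPM levels of 5.67 in KO+N-KR, 7.27 in KO+WT, 6.21 in KO and 4.89 in f/f at 3i. It had 0.675 in KO+N-KR, 0.875 in KO+WT, 0.979 in KO and 0.765 in f/f at day 1 and 1.44 in KO+N-KR, 0.907 in KO+WT, 2.97 in KO and 1.20 in f/f at day 2. No genotype overlapped between 3i and EBs, and KO at day 2 stood above the other EB samples. The Hoxc13 log2 fold change against 3i was -2.87 ± 0.26 (SE) at day 1 (edgeR adjusted p = 6.33e-07) and -1.93 ± 0.24 (SE) at day 2 (edgeR adjusted p = 1.01e-05). Hoxb9, which acts with its paralogs in the thoracic skeleton, had CPM levels of 2.22 in KO+N-KR, 3.29 in KO+WT, 4.95 in KO and 2.72 in f/f at 3i. At day 1 it had counts of 8 in KO+N-KR, 9 in KO+WT, 3 in KO and 2 in f/f, and at day 2 CPM levels of 0.248 in KO+N-KR, 0.276 in KO+WT, 1.08 in KO and 0.462 in f/f. KO was the highest genotype at 3i and at day 2. Across genotypes Hoxb9 fell, with a log2 fold change against 3i of -3.57 ± 0.39 (SE) at day 1 (edgeR adjusted p = 2.94e-06). Hoxb9 reached 10 counts in 0 samples at day 1, so the direction of this fall was set by its entry. Hoxb13, a gene of the tail end and the prostate, had CPM levels of 0.993 in KO+N-KR, 1.45 in KO+WT, 1.01 in KO and 1.40 in f/f at 3i. At day 1 the levels were 0.0964 in KO+N-KR, 0.389 in KO+WT, 0.187 in KO and 0.255 in f/f, and at day 2 they were 0.793 in KO+N-KR, 0.552 in KO+WT, 2.07 in KO and 0.971 in f/f. Hoxb13 was lowest at day 1 in every genotype. Hoxd13, a gene of the digits and the urogenital tract, had CPM levels of 0.945 in KO+N-KR, 2.05 in KO+WT, 0.755 in KO and 1.48 in f/f at 3i. At day 1 the levels were 0.964 in KO+N-KR, 1.17 in KO+WT, 0.420 in KO and 0.969 in f/f, and at day 2 they were 1.69 in KO+N-KR, 1.46 in KO+WT, 1.44 in KO and 1.85 in f/f. KO was the lowest genotype for Hoxd13 in every state, by a small margin at day 2. Hoxc12 had 10 to 24 counts in each 3i sample and 0 or 1 in each EB sample.

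Between KO and f/f the Hox sums differed most at EB day 2. There KO had 567 Hox counts and f/f had 309, a ratio of 1.78-fold and a log2 ratio of 0.83 (0.63 to 1.04). At day 1 KO had 152 counts and f/f had 192, with a log2 ratio of -0.47 (-0.78 to -0.15), and at 3i KO had 592 and f/f 590, with 0.07 (-0.09 to 0.24). KO was thus higher at day 2, lower at day 1, and at 3i the interval included 0. By cluster at day 2, the log2 ratio of KO over f/f was 0.73 (0.38 to 1.08) for Hoxa (188 counts in KO, 110 in f/f), 1.03 (0.64 to 1.43) for Hoxb (170 and 81), 1.68 (1.13 to 2.26) for Hoxc (119 and 36) and 0.09 (-0.36 to 0.54) for Hoxd (90 and 82). By position it was 0.62 (0.28 to 0.96) for anterior, 1.07 (0.66 to 1.49) for central and 0.88 (0.55 to 1.22) for posterior genes. Those 3 intervals overlapped, so no order along the clusters can be read from them. The Hoxd sum was lower in KO than in f/f in the other states, with log2 ratios of -0.83 (-1.39 to -0.29) at 3i and -1.45 (-2.39 to -0.58) at day 1. The Hoxb sum at day 1 was lower too, at -1.18 (-2.26 to -0.18) with 13 counts in KO and 27 in f/f.

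Member by member at day 2, 31 of the 39 genes had a higher CPM in KO than in f/f, 6 had a lower one and 2 had no count in either. Over all genes with a count in KO or f/f, 51.1% were higher and 48.9% lower. Of the 18 with at least 10 counts in 1 of the samples, 15 were higher, against 49.5% of all genes with at least 10 counts. Hoxa3, Hoxa4, Hoxa7, Hoxa10, Hoxb2, Hoxc4, Hoxd4 and Hoxd8 reached 10 counts in KO alone, and Hoxb1 in f/f alone. Entry through 1 sample set the direction of their counts, so the count of 15 is no evidence of a pattern. At day 1 the split was 10 higher and 23 lower, and at 3i 17 and 21. Genes differing at least 2-fold, with at least 20 counts in the higher sample, numbered 7 of 9 eligible at day 2, all higher in KO, against 4.34% of all eligible genes higher and 0.288% lower. They were Hoxa5, Hoxb2, Hoxb3, Hoxb9, Hoxb13, Hoxc4 and Hoxc13. Hoxa5, Hoxb2, Hoxb3, Hoxb9 and Hoxc4 reached 20 counts in KO alone, so their entry set their direction. The count of 7 is therefore no evidence of a pattern. In the other comparisons too, the direction of a gene with 20 counts in only 1 of the samples was set by its entry. The largest ratio among the 7 was that of Hoxb2, with 24 counts in KO and 4 in f/f and a log2 ratio of 2.54 (1.00 to 4.53). Hoxc4 had 31 and 6, with 2.33 (1.04 to 3.88), and Hoxa5, a gene of the lung and the cervical spine, had 30 and 10, with 1.54 (0.47 to 2.74). Hoxd13, also eligible, had a log2 ratio of -0.36 (-1.08 to 0.34). At 3i 0 of 8 and at day 1 0 of 3 eligible Hox genes passed in either direction, against 0.996% higher and 0.71% lower of all eligible genes at 3i and 1.27% higher and 0.515% lower at day 1. All Hox genes lay below 5 CPM at day 2, so a size rule with that minimum passed 0 of them. At day 2 fibroblast collagens were also higher in KO: Col1a1 had 18.5 CPM in KO and 12.2 in f/f, and Col3a1 had 6.11 in KO and 3.84 in f/f, while the sum of the fibroblast list was 1059 CPM in KO and 1084 in f/f. Most of that sum was Fn1, with 910 CPM in KO and 971 in f/f. Thy1 (11.1 CPM in KO and 13.2 in f/f) and Pdgfra (3.28 and 3.61) were lower in KO too. The other genes of the list were higher in KO, some by little. Across states 0 of the 16 fibroblast markers tested were called in KO against f/f, where 9.22% of all genes were, with a median log2 fold change of 0.26. The formative epiblast sum at day 2 was 557 CPM in KO and 1156 in f/f. The part of these differences in the Hox sums was not tested.

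**Figure D4:**
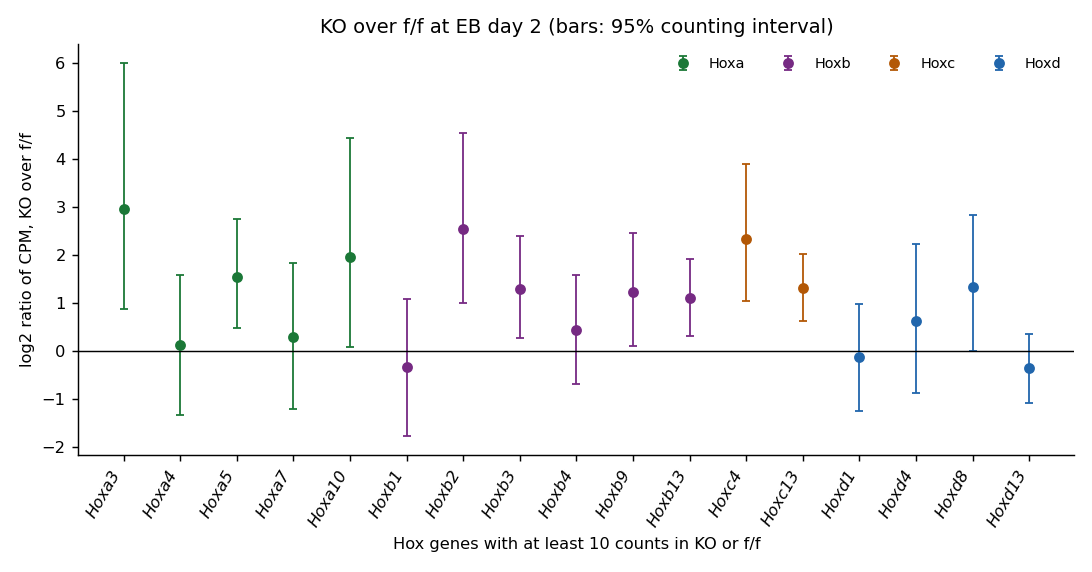
Log2 ratio of CPM, KO over f/f, at EB day 2 (vertical axis) for 17 Hox genes with at least 10 counts in KO or f/f (horizontal axis, by cluster). Points compare single samples and bars are exact 95% counting intervals, drawn up to 6 for Hoxa3. 14 points lie above 0, and the 3 below it (Hoxb1, Hoxd1 and Hoxd13) have intervals that include 0. Hoxa3, Hoxa4, Hoxa7, Hoxa10, Hoxb2, Hoxc4, Hoxd4 and Hoxd8 reached 10 counts in KO alone, and Hoxb1 in f/f alone. Entry through 1 sample set the direction of their counts.

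The day 2 difference was not called in the fit across states, which averages over the 3 states. KO against f/f, 0 of the 13 Hox genes tested were called, where 9.22% of all genes were (4.64% higher and 4.58% lower). In edgeR 3 had an unadjusted p under 0.05, and in DESeq2 0 were called and 1 had an unadjusted p under 0.05. Hoxb9 had 0.92 ± 0.41 (SE) on the log2 scale (edgeR adjusted p = 0.161), Hoxc13 0.69 ± 0.29 (SE) (edgeR adjusted p = 0.146) and Hoxd13 -0.74 ± 0.31 (SE) (edgeR adjusted p = 0.141). The 13 had a median of 0.29, against 0.00 over all genes tested. When the 24 libraries were fitted as separate samples, which sets the differences against noise near that of repeated sequencing, those 3 of 6 Hox genes tested were called, Hoxb9 and Hoxc13 higher and Hoxd13 lower in KO, where 34.7% of all genes were called. Scaling to library totals alone gave a split of all called genes of 1083 higher and 327 lower, against 694 and 686 with TMM, and still called 0 Hox genes.

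Re-expression of wild-type EED in KO cells went with lower Hox sums at day 2. KO+WT had 308 counts there and KO had 567, a log2 ratio of -1.07 (-1.27 to -0.87). At 3i the ratio was 0.24 (0.07 to 0.41), with KO+WT higher, and at day 1 it was 0.22 (-0.10 to 0.55). All 4 clusters were lower in KO+WT at day 2, with log2 ratios of -1.46 (-1.86 to -1.07) for Hoxa, -0.80 (-1.16 to -0.45) for Hoxb, -1.44 (-1.95 to -0.95) for Hoxc and -0.57 (-1.05 to -0.10) for Hoxd. Hoxd was higher in KO+WT in the other states, at 1.31 (0.77 to 1.87) at 3i (85 counts in KO+WT, 44 in KO) and 1.31 (0.43 to 2.25) at day 1 (38 and 16). At day 2, 30 members had a lower and 9 a higher CPM in KO+WT than in KO, where 50.8% of all genes were lower and 49.2% higher. By the 2-fold rule 6 of 9 eligible Hox genes were lower and 0 higher at day 2, against 3.63% lower and 1.33% higher of all eligible genes. Among these 6 were Hoxa5, Hoxb9, Hoxb13, Hoxc4 and Hoxc13. At 3i 1 of 7, Hoxd13, was higher, against 1.2% higher and 0.996% lower of all. At day 1 Hoxd13 was higher and Hoxc4 lower, out of 4, against 1.65% higher and 2.11% lower of all. In the fit across states 0 of 13 were called, where 16.2% of all genes were (7.11% higher and 9.06% lower). In edgeR and in DESeq2 1 had an unadjusted p under 0.05, and DESeq2 called 0. In edgeR that was Hoxd13, at 0.86 ± 0.31 (SE) (edgeR adjusted p = 0.0732). Hoxd13 was called without the second library of each group and without day 2, and without 3i Hoxc4 and Hoxc13 were called lower in KO+WT. Fibroblast markers differed between these lines: 6 of 16 tested rose and 0 fell in KO+WT against KO, and at 3i their sum was 3903 CPM in KO+WT and 3035 in KO. Their part in the 3i Hox sums was not tested. At day 2, where KO+WT had the lower Hox sum, the fibroblast sums were 1093 CPM in KO+WT and 1059 in KO. Most of these sums was Fn1, with 896 CPM in KO+WT and 910 in KO. The listed collagens were higher in KO+WT, with 33.8 CPM of Col1a1 against 18.5 in KO. Vim (55.8 CPM in KO+WT and 61.6 in KO), Twist1 (3.00 and 8.04), Twist2, Pdgfra, Pdgfrb and Lum were lower. Their part in the day 2 Hox sums was not tested. Formative epiblast markers also differed: 4 of 5 rose and 0 fell in KO+WT against KO, and at day 2 their sum was 1537 CPM in KO+WT and 557 in KO. In KO+N-KR against KO 3 rose and 0 fell, where 6.67% of all genes rose and 9% fell, with a day 2 sum of 1699 CPM in KO+N-KR. The day 2 sum of these markers in f/f was 1156 CPM. The part of this difference in the Hox sums was not tested.

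The line with the N-KR form also had lower Hox sums than KO at day 2. KO+N-KR had 210 counts and KO had 567, a log2 ratio of -1.29 (-1.53 to -1.06), with -0.30 (-0.48 to -0.11) at 3i and 0.04 (-0.30 to 0.37) at day 1. The Hoxa sum was the most unequal at day 2, with 34 counts in KO+N-KR and 188 in KO and a log2 ratio of -2.33 (-2.90 to -1.79). For Hoxb it was -1.14 (-1.56 to -0.73), for Hoxc -1.36 (-1.90 to -0.84) and for Hoxd -0.35 (-0.84 to 0.13). Of the members 29 were lower and 9 higher at day 2, where 50.5% of all genes were lower and 49.5% higher. By the 2-fold rule 6 of 9 eligible were lower and 0 higher (Hoxa5, Hoxb2, Hoxb9, Hoxb13 and Hoxc4 among them), against 4.64% lower and 1.28% higher of all. At 3i 1 of 7, Hoxb9, was lower, against 1% higher and 1.52% lower of all. At day 1 Hoxd13 was higher and Hoxc4 lower, out of 4, against 1.35% higher and 1.77% lower of all. Across states 1 of the 13 Hox genes tested was called, and it fell, where 15.7% of all genes were (6.67% higher and 9% lower). In edgeR 0 were called without the first library of each group, without day 1 or without day 2, and DESeq2 called 1. Of all genes, 758 rose and 937 fell without the first library, 108 and 220 without day 1, and 453 and 652 without day 2. This comparison and that of KO+WT share the KO samples, so their likeness is no independent evidence.

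KO+N-KR and KO+WT were compared directly, and they differed in Eed itself. Eed had 168, 181 and 122 CPM in KO+N-KR at 3i, day 1 and day 2, against 387, 372 and 188 in KO+WT, and fell, with a log2 fold change of -0.97 ± 0.10 (SE) (edgeR adjusted p = 2.87e-04). In KO+N-KR against KO Eed had 0.20 ± 0.10 (SE) and was not called (edgeR adjusted p = 0.196). The form of EED and its RNA level therefore cannot be told apart in this comparison. The Hox sum was lower in KO+N-KR at 3i, with 428 counts against 544 in KO+WT and a log2 ratio of -0.53 (-0.72 to -0.35). On the EB days the intervals included 0, at -0.18 (-0.51 to 0.14) at day 1 and -0.22 (-0.48 to 0.03) at day 2. At 3i 30 members were lower and 7 higher, where 50.8% of all genes were lower and 49.2% higher, and the intervals of all 4 clusters lay below 0, from -0.90 (-1.42 to -0.38) for Hoxd to -0.41 (-0.68 to -0.14) for Hoxc. Fibroblast markers stood lower there in part: Col1a1 had 207 CPM in KO+N-KR and 352 in KO+WT, and the list's sum was 3693 and 3903. Their part in the result was not tested. At day 2 the Hoxa sum was lower in KO+N-KR, at -0.87 (-1.49 to -0.27), and those of Hoxb, Hoxc and Hoxd had intervals that included 0. By the 2-fold rule 1 of 7 eligible genes, Hoxd13, was lower in KO+N-KR at 3i, against 0.522% higher and 1.3% lower of all. At day 1 it passed 0 of 2, against 0.824% higher and 0.703% lower. At day 2 it passed 2 of 4, both lower and Hoxb2 among them, against 0.339% higher and 0.686% lower. Hoxb2, a hindbrain gene, had 2 counts in KO+N-KR and 22 in KO+WT at day 2. In the fit across states 0 of 13 were called, with 0 at an unadjusted p under 0.05 in edgeR and in DESeq2, where by edgeR 0.561% of all genes were (0.294% higher and 0.267% lower).

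Against f/f, the 2 rescue lines had lower point values of the Hox sum than f/f in EBs. KO+N-KR was lower in all 3 states, with log2 ratios of -0.22 (-0.41 to -0.04) at 3i, -0.43 (-0.75 to -0.11) at day 1 and -0.46 (-0.72 to -0.20) at day 2. KO+WT had 0.31 (0.14 to 0.48) at 3i and -0.25 (-0.55 to 0.06) at day 1. Its day 2 ratio was -0.23, with an interval from -0.47 to just below 0. Fibroblast markers differed in the same comparison: 9 of 16 tested rose and 0 fell in KO+WT against f/f, and their 3i sum was 3903 CPM in KO+WT and 2719 in f/f. Their part in the higher 3i Hox sum of KO+WT was not tested. Across states, KO+N-KR against f/f, 1 of 13 was called and fell, where 9.12% of all genes were (3.71% higher and 5.41% lower). In edgeR 0 were called without the first library of each group, without day 1 or without day 2, and DESeq2 called 1. Of all genes, 440 rose and 642 fell without the first library, 47 and 127 without day 1, and 638 and 879 without day 2. KO+WT against f/f, 0 of 13 were called and 0 had an unadjusted p under 0.05 in edgeR and in DESeq2, where by edgeR 9.14% of all genes were (3.71% higher and 5.43% lower). By the 2-fold rule Hoxb2 was higher in KO+WT at day 2, 1 of 5 eligible, against 1.57% higher and 0.354% lower of all. In KO+WT 0 passed at 3i, against 1.75% higher and 1.01% lower of all, and 0 at day 1, against 1.71% higher and 0.919% lower. In KO+N-KR 1 of 4 eligible was lower at day 2, against 1.12% higher and 0.75% lower of all. There 0 passed at 3i, against 1.32% higher and 1.3% lower, and 0 at day 1, against 1.92% higher and 1.2% lower.

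**Figure D5:**
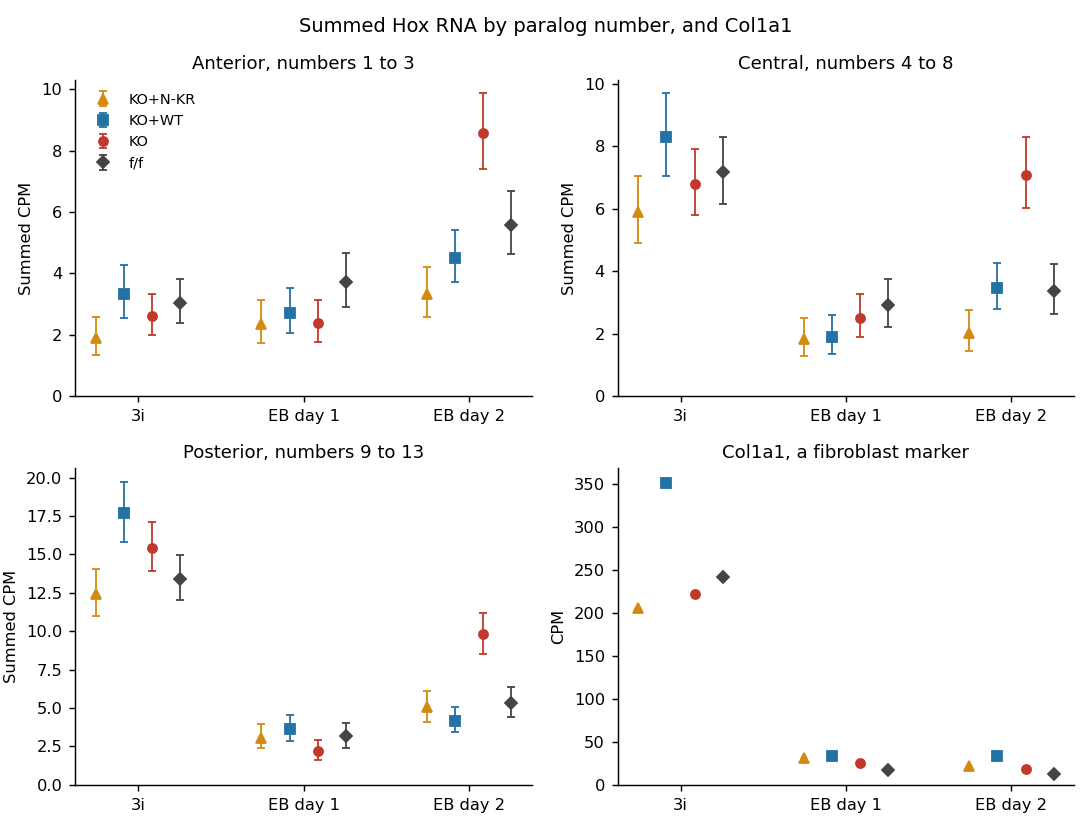
Summed CPM (vertical axis) of the anterior, central and posterior Hox genes, and CPM of the fibroblast marker Col1a1, at 3i and EB days 1 and 2 (horizontal axis) in the 4 genotypes. Bars on the sums are exact 95% Poisson intervals. Col1a1 is at 207 to 352 CPM at 3i and 12.2 to 34.1 in EBs. At day 2 the KO Hox sums stand above those of the other genotypes, and Col1a1 is at 22.1 CPM in KO+N-KR, 33.8 in KO+WT, 18.5 in KO and 12.2 in f/f.

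The TALE homeodomain proteins Pbx, Meis and Pknox bind DNA together with Hox proteins. All 9 cofactor genes were tested, and 4 rose and 0 fell in KO against f/f (Meis2, Pbx3 and Pknox2 among them), with a median log2 fold change of 0.48, against 0.00 over all genes. Of all genes tested, 4.64% rose and 4.58% fell in KO against f/f. In KO+WT against KO 7.11% rose and 9.06% fell, and in KO+N-KR against KO 6.67% rose and 9% fell. These shares are the background of each list in this paragraph. Meis2 had a log2 fold change of 1.35 ± 0.33 (SE) (edgeR adjusted p = 0.0262) and had CPM levels of 6.70 in KO+N-KR, 4.37 in KO+WT, 12.5 in KO and 5.05 in f/f at day 1. Without day 1, 0 genes of the whole table were called in KO against f/f, which ends these calls and those of Eed and the other lists in this comparison. In KO+WT against KO 3 fell and 0 rose (Meis1, Meis2 and Pbx3), and in KO+N-KR against KO 3 fell and 0 rose (Meis2, Pbx2 and Pbx3). The log2 fold change of Meis2 was -1.24 ± 0.33 (SE) in KO+WT (edgeR adjusted p = 0.0221) and -1.39 ± 0.33 (SE) in KO+N-KR (edgeR adjusted p = 0.0126). Of the caudal and retinoic acid genes that act upstream of Hox clusters, 17 of 20 were tested. In KO against f/f 1 rose, the retinoid receptor gene Rxra, and 0 fell (median -0.03). In KO+N-KR against KO 0 rose and 1 fell, Cdx1, a caudal-type regulator of Hox genes, with a log2 fold change of -1.24 ± 0.31 (SE) (edgeR adjusted p = 0.0172). Cdx1 had CPM levels of 11.0 in KO+N-KR, 16.7 in KO+WT, 18.8 in KO and 24.8 in f/f at 3i and 0.149 in KO+N-KR, 0.434 in KO+WT, 1.80 in KO and 0.925 in f/f at day 2. Of the ParaHox genes, the sister group of the Hox clusters, 4 of 6 were tested and 0 changed in KO against f/f.

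Around the clusters, 12 of 24 listed flanking and noncoding genes were in the table and 9 were tested, of which 0 rose and 1 fell in KO against f/f (Hibadh). For this list and those below, 4.64% of all genes tested rose and 4.58% fell in KO against f/f. In KO+WT against KO 7.11% rose and 9.06% fell, and in KO+N-KR against KO 6.67% rose and 9% fell. Hoxa11as, antisense to Hoxa11, had 0 to 10 counts per sample. The strand setting of the counting is unknown here, so reads of Hox genes and of overlapping or antisense genes cannot be told apart. Evx1, which flanks the Hoxa cluster and marks the primitive streak, had 0, 20 and 16 counts in KO at 3i, day 1 and day 2, against 1, 14 and 1 in f/f. Of the PRC2 genes 11 of 12 were tested, and 3 fell and 0 rose in KO against f/f: Eed, and the histone-binding subunit genes Rbbp4, with a log2 fold change of -0.29 ± 0.05 (SE) (edgeR adjusted p = 0.00911), and Rbbp7, with -0.27 ± 0.05 (SE) (edgeR adjusted p = 0.0129). Of the genes of Trithorax proteins and H3K27 demethylases, which oppose Polycomb repression, 6 of 8 were tested, with 0 changed in KO against f/f and 3 higher in KO+WT against KO (Kdm6a, Kdm6b and Wdr5). Markers of other cell types also differed between the lines. Of 8 primitive endoderm genes 2 rose and 0 fell in KO against f/f, and 0 rose and 5 fell in KO+WT against KO. In KO+N-KR against KO 2 rose (Dab2 and Cubn) and 0 fell. The same 2 rose and 0 fell in KO+N-KR against KO+WT, where 0.294% of all genes rose and 0.267% fell. The primitive endoderm sum at day 2 was 105 CPM in KO+N-KR, 38.0 in KO+WT, 88.6 in KO and 67.5 in f/f. Of 5 primitive streak genes tested 0 changed in KO against f/f, and 0 rose and 1 fell in KO+WT against KO. Of 5 neural genes tested 0 changed in KO against f/f. In KO+WT against KO 1 rose (Neurog1) and 2 fell (Sox1 and Tubb3), and in KO+N-KR against KO 0 rose and 1 fell (Tubb3). In KO+N-KR against f/f 0 rose and 2 fell (Sox1 and Tubb3), where 3.71% of all genes rose and 5.41% fell. In KO+WT against f/f 0 rose and 1 fell (Sox1), where 3.71% of all genes rose and 5.43% fell. The neural sum at day 2 was 26.1 CPM in KO+N-KR, 25.8 in KO+WT, 54.0 in KO and 39.0 in f/f. The part of such cells in the Hox sums was not tested.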

How the data were processed

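The deposited table holds 30 columns of whole-number counts per gene symbol, of which 24 match a library in the labels and 6 were left unused. Per the submitters' processing notes, STAR 2.5.2b and DESeq2 were used and the build was mm9. For the counter, the strand setting and the annotation no source used here gives a name. The values are raw counts as the authors deposited them. The 2 libraries of a group were summed, because they differed by little more than sampling noise. Counts were analysed with edgeR 4.0.16 in R 4.3.3 (TMM, filterByExpr by genotype, quasi-likelihood F-test of genotype + state, 6 residual degrees of freedom). Ratios used exact Poisson and conditional binomial 95% intervals, and 2-fold rules a prior count of 2. Alternatives were DESeq2 1.42.0, other scalings, no filter, and left-out libraries or states. Sequences are from RefSeq (GRCm38.p6), and no coordinates of mm9 were used. Exon lengths were taken from GENCODE M21 (GRCm38). Genes named one by one were taken from the 10 Hox genes of highest mean CPM and those called between genotypes, and, chosen after their values were seen, Hoxa5, Hoxb1, Hoxb2 and Hoxc12. The members and lists were chosen with earlier results of these data known. Some genes that entered the counts, sums and tests are not reported here by name.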

Additional observations from a re-analysis of the deposited data

Results flagged for a closer look

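Several summed Hox ratios had opposite signs in different states, each with a counting interval on its side of 0. With 1 sample per genotype and state, none of these differences between states was tested, and the intervals cover counting error only. KO over f/f, the log2 ratio of all 39 genes was 0.83 at day 2 and -0.47 at day 1. The Hoxb sum had 0.39 at 3i, -1.18 at day 1 and 1.03 at day 2, and the anterior sum had -0.65 at day 1 and 0.62 at day 2. KO+WT over KO, the ratio of all 39 genes was 0.24 at 3i and -1.07 at day 2. The Hoxb sum had 1.45 at day 1 and -0.80 at day 2, the Hoxd sum 1.31 at 3i, 1.31 at day 1 and -0.57 at day 2, and the posterior sum 0.73 at day 1 and -1.23 at day 2. KO+WT over f/f, the ratio of all 39 genes was 0.31 at 3i and -0.23 at day 2. The comparisons share samples (KO in the first and second, f/f in the first and last, KO+WT in the second and last), so these opposite signs are not separate observations.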

How the results depend on the processing

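No setting tried turned the direction of a called Hox gene, and the 90 alternative values of the summed ratios moved by less than their counting error. Without a filter on low counts, of 39 Hox genes 18 were called at day 1 against 3i (50.8% of all genes), 14 at day 2 against 3i (49.6%), 10 at day 2 against day 1 (42.2%) and 2 in KO+N-KR against KO (11.7%). With the 24 libraries as separate samples 6 Hox genes were tested, and the counts were 5, 4, 3 and 2 in that order (76.8%, 75.1%, 69.1% and 38.7% of all genes), 3 in KO against f/f (34.7%) and 1 in KO+WT against KO (38.6%). Adding the replicate number as a replicate block gave the same counts, 3 in KO against f/f among them. The numbers do not pair samples, since deviations of libraries with the same number correlated between groups at -0.041 to 0.042. With only the 2 genotypes compared, KO+N-KR against KO had 0 calls. Leaving out 1 replicate number, state or genotype also changed how many Hox genes were tested. At day 1 against 3i 3 to 9 were called, with 3 of 5 without replicate 1 and 9 of 11 without f/f. There 4193 of 13733 genes rose and 4257 fell, and 4438 of 14852 rose and 4662 fell. At day 2 against 3i 3 to 8 were called, with 8 of 12 without KO (4683 higher and 4403 lower of 14774 genes). At day 2 against day 1 it was 0 to 6, with 6 of 12 without KO+N-KR (3896 and 3505 of 14803). It was 0 to 2 in KO+WT against KO, with 2 of 10 without 3i (1185 and 1667 of 14844). It was 0 to 2 in KO+N-KR against KO too, again 2 of 10 (1248 and 1686). It was 0 to 1 in KO+N-KR against f/f, with 1 of 10 without 3i (519 and 814). The cause was not tested. With at least 5 CPM asked of the higher sample, the 2-fold rule passed 0 Hox genes in the 11 comparisons in which it had passed any. A prior count of 0.5 gave 2 genes in KO+N-KR against KO at 3i and 1 in KO+WT against f/f at day 1, and library totals gave 1 in KO+N-KR against KO at day 1. Without day 1, KO against f/f had 0 calls over all genes. Library totals moved the all-gene median of day 1 against 3i to -0.11, and split the calls of all genes into 769 higher and 638 lower in KO+WT against f/f (555 and 813 with TMM) and 814 and 689 in KO+N-KR against f/f (555 and 810). With the filter, 26 of the 39 Hox genes entered no test.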
